A study of Mus musculus with 6 samples.

Results

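The genes described here are 33 named genes of glycolysis and of the response to low oxygen: enzymes and transporters from glucose uptake to lactate export, then the hypoxia-inducible transcription factor (HIF) subunits, their prolyl hydroxylases and HIF target genes. All probe sets that the platform annotation gives to a member's symbol alone were taken. These were 37 probe sets of 30 genes, out of 28815 probe sets on the array. Of these genes, 28 had a probe set above the filter on dim probe sets and entered the tests, among 17289 tested probe sets. The levels of Gpi1, Gapdh and Eno1 were not analysed here. For Gapdh, 25 probe sets carried its symbol together with others.

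The series compared hematopoietic stem cells (HSC) of C57BL/6 mice that were wild type (WT) with HSC of C57BL/6 mice lacking Selp (Selp-/-), to find genes that P-selectin, the adhesion receptor encoded by Selp, controls in these cells. There were 3 arrays per genotype, numbered 1 to 3 in the sample titles, so that each number occurs once in WT and once in Selp-/-. No source used here gives the age of the mice, the sort of the HSC or the kind of targeted allele. The level of Selp was not analysed here and could not serve to check the genotype labels. Whether each array stands for its own mouse is not said in the labels. The p-values therefore cover the spread among these 6 arrays alone, and that spread may be technical. The measurements are of bulk RNA, in which fewer cells of a type and less RNA per cell cannot be told apart.

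Glycolysis splits glucose to pyruvate in the cytosol, and lactate dehydrogenase turns pyruvate to lactate where it is not burned in mitochondria. Under low oxygen the prolyl hydroxylases of the Egln family stop marking HIF alpha subunits for destruction, and HIF then binds DNA at a short core motif and raises transcription of glucose transporters, glycolytic enzymes and Pdk1, whose kinase keeps pyruvate out of mitochondria. HSC live in a bone marrow niche poor in oxygen and are known for a glycolytic metabolism that depends on HIF and on pyruvate dehydrogenase kinases.

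The promoters of 6 of the 8 members whose levels changed with the array number are shown first, since HIF targets are recognised by the core motif ACGTG or GCGTG. The promoters are those of RefSeq on the mouse build GRCm38.p6, and each run holds the 250 bases before a transcription start, read 5' to 3' on the gene's strand. Capitals mark ACGTG or GCGTG on either strand, so that a match on the opposite strand reads CACGT or CACGC. Aldoa, Pfkp, Hk2, Slc16a3 and Hif1a were higher in the arrays numbered 3, and Pdk1 was lower.
Aldoa (aldolase A; chr7:126799255-126799504, minus strand, 1 of 3 listed starts): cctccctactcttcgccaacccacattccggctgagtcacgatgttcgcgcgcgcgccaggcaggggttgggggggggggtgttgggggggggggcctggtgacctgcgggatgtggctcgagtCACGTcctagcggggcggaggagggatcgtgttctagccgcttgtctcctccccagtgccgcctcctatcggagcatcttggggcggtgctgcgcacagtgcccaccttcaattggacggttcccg
Pfkp (phosphofructokinase, platelet type; chr13:6648772-6649021, minus strand): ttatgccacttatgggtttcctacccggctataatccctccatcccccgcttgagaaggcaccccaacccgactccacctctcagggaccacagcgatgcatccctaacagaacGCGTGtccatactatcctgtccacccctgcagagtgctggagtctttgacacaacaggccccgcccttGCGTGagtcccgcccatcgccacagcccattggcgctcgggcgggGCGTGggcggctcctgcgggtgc
Hk2 (hexokinase 2; chr6:82774455-82774704, minus strand): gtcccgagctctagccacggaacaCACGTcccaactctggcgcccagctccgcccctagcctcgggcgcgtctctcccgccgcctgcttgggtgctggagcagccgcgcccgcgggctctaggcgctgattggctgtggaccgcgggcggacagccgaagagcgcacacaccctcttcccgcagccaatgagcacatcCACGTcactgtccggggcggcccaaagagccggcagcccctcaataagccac
Slc16a3 (lactate exporter MCT4; chr11:120948817-120949066, plus strand): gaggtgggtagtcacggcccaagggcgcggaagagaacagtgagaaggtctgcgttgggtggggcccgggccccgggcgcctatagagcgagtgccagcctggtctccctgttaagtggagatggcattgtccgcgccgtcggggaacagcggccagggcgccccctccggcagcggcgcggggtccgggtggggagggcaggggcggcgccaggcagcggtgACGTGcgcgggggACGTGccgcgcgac
Hif1a (HIF alpha subunit; chr12:73907617-73907866, plus strand): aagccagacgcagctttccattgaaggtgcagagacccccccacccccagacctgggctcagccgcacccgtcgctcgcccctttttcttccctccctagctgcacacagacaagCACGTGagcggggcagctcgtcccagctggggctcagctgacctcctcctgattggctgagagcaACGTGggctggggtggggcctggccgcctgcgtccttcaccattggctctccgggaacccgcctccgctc
Pdk1 (pyruvate dehydrogenase kinase; chr2:71872974-71873223, plus strand, 1 of 2 listed starts): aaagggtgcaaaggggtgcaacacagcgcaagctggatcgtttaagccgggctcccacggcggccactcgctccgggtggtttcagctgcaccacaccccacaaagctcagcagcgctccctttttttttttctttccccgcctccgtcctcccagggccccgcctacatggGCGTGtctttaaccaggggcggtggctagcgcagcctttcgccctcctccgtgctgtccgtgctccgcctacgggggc

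Among these runs the Hk2 and Slc16a3 promoters each held the letters ACGTG at 2 places, in Hk2 on the opposite strand. The Pfkp promoter held GCGTG at 3 places, and the Pdk1 promoter held GCGTG once. In the Hif1a run, CACGTG, which is also the E-box of basic helix-loop-helix factors, reads ACGTG on both strands. The RefSeq table held 44 promoters of 30 of the 33 genes. Gapdh and Eno1 are among them, so these are not the same 30 genes as those with probe sets. The whole window ran from 250 bases before to 50 bases after the start. Either motif was found there in 36 of the 44 promoters (81.8%), against 43.8% of all 32851 promoters. ACGTG alone was in 26 (59.1%) against 19.6% of all, and GCGTG in 25 (56.8%) against 32.4%. The members' windows were also richer in G and C, with a median of 63.2% against 52.7%, and the part of base composition in the share was not tested. The members were picked as glycolysis genes and HIF targets, so a share above that of all promoters was built into the list. Starts of the same gene can have overlapping windows, as in Aldoa, so that the same site can count more than once. The matches are a description of letters. The table also lists an Aldoa start and a Pdk1 start whose 250 bases held 0 matches, which are not printed, so the printed runs were chosen to hold a match.

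The arrays numbered 3 stood apart from the other 4 in both genotypes and went against the HSC label. Hlf, a transcription factor that marks HSC, had log2 levels of 12.45 and 12.37 in WT arrays 1 and 2 and 12.13 and 12.53 in Selp-/- arrays 1 and 2, but 8.88 and 8.81 in the arrays numbered 3, beside a filter level of 8.79. The F test used here asks for any difference among the 3 numbers, and a call is named higher or lower by array 3 against the mean of arrays 1 and 2. Of 13 tested HSC markers 11 were called lower, and for all 11 both arrays numbered 3 lay below the other 4. Of these, 2 (Mecom and Tek) lay under the filter level in the arrays numbered 3 and were tested through arrays 1 and 2. Gata2 and Slamf1 were not called. Gata2 went the other way, with both arrays numbered 3 above the other 4 (difference 0.86, F test, adjusted p = 0.0573). Slamf1 differed by -0.46 (adjusted p = 0.175), with the arrays numbered 3 not both on 1 side. The list's mean level ran from 11.01 to 11.48 in arrays 1 and 2 and was 9.81 and 9.70 in the arrays numbered 3. The 7 tested mast cell and basophil markers, of 10 listed, had a mean level of 8.98 to 9.30 in arrays 1 and 2 against 12.52 in WT 3 and 12.07 in Selp-/- 3. No share called is read from this list, since 3 of the 7 (Fcer1a, Gzmb and Tpsb2) lay under the filter level in arrays 1 and 2 and were tested through the arrays numbered 3. Of 13 tested neutrophil markers 12 were called, 10 higher and 2 lower (Retnlg at -0.96 and Mmp9 at -0.05). Both arrays numbered 3 lay above the other 4 for only 8 of the 12. For Retnlg and Mmp9 they lay within the range of the others. The list's mean level was 11.33 and 11.11 in arrays 1, 9.72 and 9.78 in arrays 2, and 11.84 and 11.74 in the arrays numbered 3. Erythroid markers also differed between arrays 1 (mean 11.06 and 11.10) and arrays 2 (10.18 and 10.30), with 9.39 and 9.18 in the arrays numbered 3; 5 of 7 were called, 4 of them below the other arrays in both arrays numbered 3. Monocyte markers were called higher for 5 of 9, although 3 of the 9 lay under the filter level in arrays 1 and 2. Called higher were also megakaryocyte markers for 2 of 8 and T and NK markers for 1 of 4. The 2 megakaryocyte calls, Pf4 and Ppbp, also differed between arrays 1 and 2. Pf4 read 11.26, 9.08 and 12.47 in WT and 11.39, 9.69 and 11.72 in Selp-/-. Ppbp read 10.24, 8.59 and 12.85 in WT and 10.72, 8.79 and 11.84 in Selp-/-. Called lower were 4 of 8 endothelial and 2 of 8 B lymphoid markers. Klf1 (erythroid), Retnlg (neutrophil) and Ebf1 (B lymphoid) also lay under the filter level in the arrays numbered 3, and Cxcr2 (neutrophil) in arrays 1 and 2. Over all tested probe sets 12.8% were called, 6.11% higher and 6.72% lower. The marker counts are not read against these shares. No source used here says what the number stands for, and the part of other cell types in the differences that follow was not tested. Results are therefore given by array number before genotype, and with and without the arrays numbered 3.

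Of the glycolysis and hypoxia genes that changed with the array number, more were higher than lower in the arrays numbered 3. Levels are log2 intensities after background correction and quantile normalization, and a difference by array number is array 3 minus the mean of arrays 1 and 2, averaged over WT and Selp-/-. By limma's moderated F test over the array numbers, with genotype as a covariate and Benjamini-Hochberg adjustment at 0.05, 8 of 28 members changed (28.6%), while 2217 of all 17289 tested probe sets did (12.8%). Aldoa, Pfkp, Hif1a, Slc16a3, Hk2 and Pgam1 were higher in the arrays numbered 3, which is 6 members (21.4%) against 6.11% of all probe sets. Pdk1 and Ndrg1 were lower, 2 members (7.14%) against 6.72%. For all 8 both arrays numbered 3 lay on 1 side of the other 4, and 0 of the 28 tested members had a mean under the filter level in arrays 1 and 2 or in the arrays numbered 3. The median difference over the 28 members was 0.31, and over all tested probe sets it was -0.01. The members are the brightest probe set of each gene, with mean levels of 10.52 to 10.89 per array, while those of all tested probe sets were 10.06 to 10.07; the part of brightness in the share called was not tested.

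With no test, both arrays numbered 3 lay above all other 4 for 16 members (57.1%, against 20.1% of all tested probe sets) and below them for 5 (17.9%, against 25.1%). Without the arrays numbered 3, arrays 1 and 2 differed for 0 of 28 members at the same threshold, against 87 of 17289 probe sets (0.503%). At an unadjusted p under 0.05 that comparison held 1 member, Ndrg1, named after its value was seen, or 3.57% of the members against 7.92% of all.

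**Figure D1:**
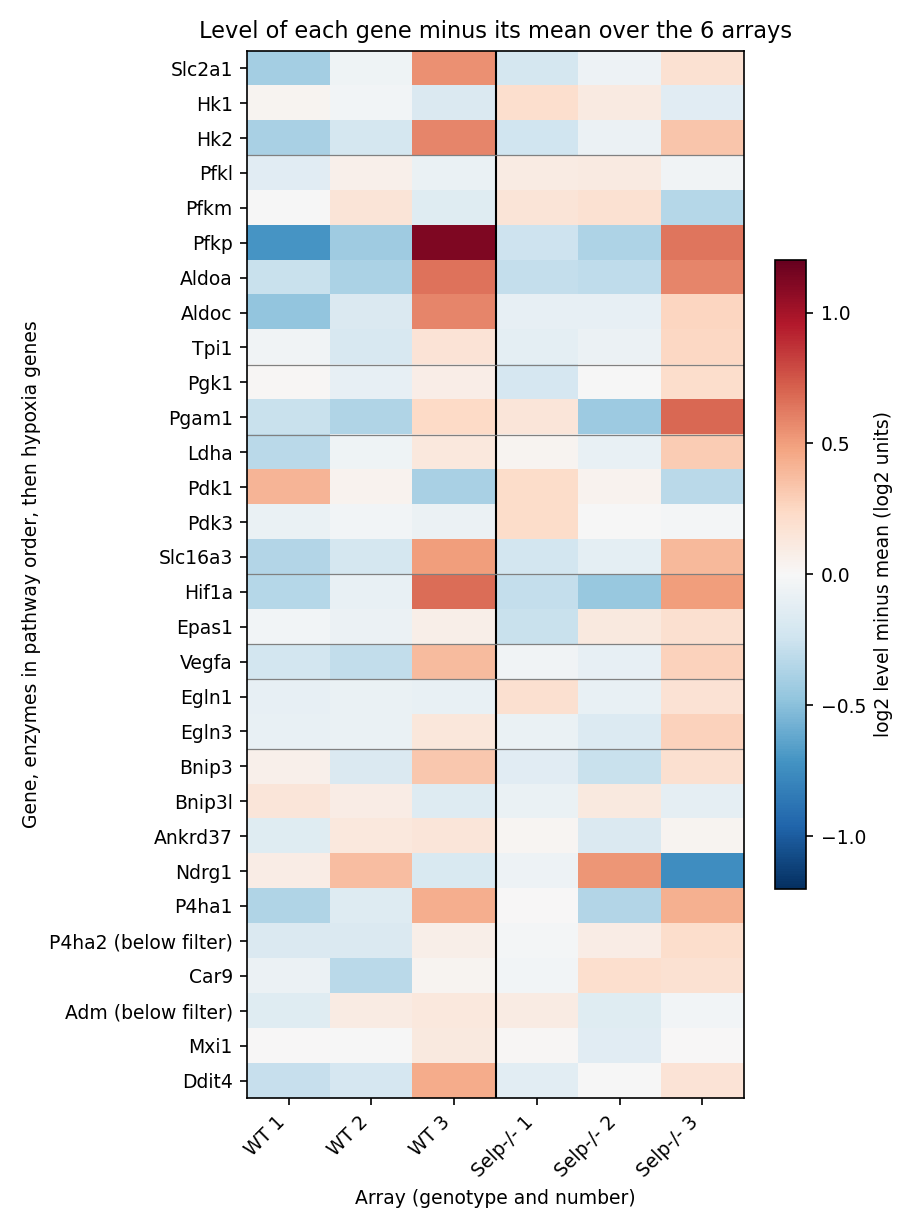
Log2 level of each of the 30 measured genes in each of the 6 arrays, minus that gene's mean over the arrays (colour, log2 units), with enzymes in pathway order at the top and hypoxia genes below. The columns WT 3 and Selp-/- 3 are red for Hk2, Pfkp, Aldoa, Pgam1, Slc16a3 and Hif1a and blue for Pdk1 and Ndrg1; P4ha2 and Adm lay below the filter and were not tested.

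Glucose entry and its trapping by hexokinase come first in the pathway. Hk2, the inducible hexokinase of muscle and many tumours, had levels of 9.56, 9.74 and 10.54 in WT arrays 1, 2 and 3 and 9.71, 9.88 and 10.28 in the Selp-/- arrays. Both arrays numbered 3 were above the other 4, and the genotypes overlapped. Hk2 was higher by 0.69 (SE 0.13), a 1.61-fold difference (limma F test, adjusted p = 0.0315). The call was lost without Selp-/- 2 (adjusted p = 0.0508), WT 1 (0.0613), WT 2 (0.0727) or WT 3 (0.224), each of which left 1 residual degree of freedom.

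Slc2a1, the glucose transporter GLUT1, had levels of 10.76, 11.12 and 11.71 in WT and 10.95, 11.10 and 11.35 in Selp-/-. Its arrays numbered 3 were again the highest, and its difference of 0.54 (SE 0.14) missed the threshold (adjusted p = 0.0739). Hk1, the hexokinase of most tissues, had 2 probe sets. The probe set that carries its RefSeq transcripts read 11.21, 11.39 and 11.25 in WT and 11.56, 11.41 and 11.19 in Selp-/-. It showed no separation by number, with a difference of -0.17 (SE 0.13, adjusted p = 0.599). The brightest probe set, used by the rule of the brightest, carries 1 accession, which is no RefSeq mRNA, so its identity is uncertain. A further 16 probe sets carried the Hk1 symbol together with others. For the brightest probe set the difference was -0.23 (SE 0.07, F test, adjusted p = 0.116). Its arrays numbered 3 lay below the other 4, so Hk1 is among the 5 members counted as below only by this probe set.

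Between fructose phosphate and triose phosphate, 1 of 3 phosphofructokinase isozymes changed by array number. Pfkp, the platelet-type phosphofructokinase of the committed step, had levels of 9.28, 9.56 and 11.11 in WT and 9.74, 9.62 and 10.63 in Selp-/-. WT 3 was highest and Selp-/- 3 next, with a wide gap to the other arrays. The difference was 1.32 (SE 0.19), or 2.49-fold (adjusted p = 0.0138), and only leaving out WT 2 among the 6 arrays ended the call (adjusted p = 0.0606). Pfkm, the muscle-type isozyme, read 10.13, 10.29 and 9.99 in WT and 10.29, 10.31 and 9.79 in Selp-/-. Here the arrays numbered 3 were the lowest, and the difference of -0.37 (SE 0.12) did not pass (adjusted p = 0.156). Pfkl, the liver-type isozyme, read 10.28 to 10.53 over the 6 arrays with the arrays numbered 3 inside that range (difference -0.09, adjusted p = 0.681). Differences between isozymes were not tested against each other.

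Aldoa, aldolase A, which cleaves fructose bisphosphate, had levels of 12.34, 12.23 and 13.26 in WT and 12.33, 12.30 and 13.19 in Selp-/-. The 4 arrays numbered 1 and 2 lay within 0.11 of each other, and both arrays numbered 3 were far above them. The difference was 0.92 (SE 0.09), or 1.90-fold (adjusted p = 0.00300). Among the 8 called members Aldoa alone passed when each of the 6 arrays was left out in turn, with adjusted p from 0.00131 to 0.0249. Aldoc, the brain-type aldolase, read 9.38, 9.69 and 10.45 in WT and 9.76, 9.76 and 10.12 in Selp-/-, with a difference of 0.64 that missed the threshold (adjusted p = 0.0705). Tpi1, triose phosphate isomerase, read 11.87 to 12.01 in arrays 1 and 2 and 12.22 and 12.31 in the arrays numbered 3 (difference 0.31, adjusted p = 0.157).

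The payoff phase is represented by Pgk1 and Pgam1. Pgam1, phosphoglycerate mutase, had levels of 11.63, 11.54 and 12.14 in WT and 12.04, 11.47 and 12.59 in Selp-/-. Selp-/- 1 lay nearly as high as WT 3, yet both arrays numbered 3 remained the highest. The difference was 0.70 (SE 0.14), or 1.62-fold (adjusted p = 0.0319); a further pair of Pgam1 probe sets, identical to each other in every value, gave 0.66 (adjusted p = 0.0458). The call was lost without Selp-/- 2 (adjusted p = 0.0546), Selp-/- 3 (0.122) or WT 3 (0.0557). Pgk1, phosphoglycerate kinase, which makes ATP in this phase, read 11.92, 11.81 and 11.98 in WT and 11.71, 11.90 and 12.11 in Selp-/-. Both arrays numbered 3 lay above the other 4. The range over the 4 arrays numbered 1 and 2, of 0.22, was as large as the difference by number of 0.22 (SE 0.12, F test, adjusted p = 0.410). Pgam1 and Pgk1 have near-identical copies in the genome, which probe sets may not separate.

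Of the 4 tested members that act on pyruvate and lactate, 1 was higher and 1 lower. Slc16a3, the exporter MCT4 that releases lactate from glycolytic cells, had levels of 9.68, 9.82 and 10.54 in WT and 9.82, 9.92 and 10.43 in Selp-/-. Both arrays numbered 3 were above the other 4. The difference was 0.67 (SE 0.11), or 1.59-fold (adjusted p = 0.0225); it was lost without WT 2 (adjusted p = 0.0583) or WT 3 (0.189). Pdk1, the HIF target kinase that shuts pyruvate dehydrogenase, had levels of 10.32, 9.95 and 9.51 in WT and 10.13, 9.94 and 9.58 in Selp-/-. Both arrays numbered 3 were below the other 4, and the genotypes overlapped. Pdk1 was lower, with a difference of -0.54 (SE 0.11; 0.690-fold; adjusted p = 0.0347), a call that was lost when any of the 6 arrays was left out (adjusted p from 0.0569 to 0.214).

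Ldha, the lactate dehydrogenase subunit of glycolytic tissues, read 12.44, 12.71 and 12.89 in WT and 12.80, 12.68 and 13.08 in Selp-/- (difference 0.33, adjusted p = 0.146). Its partner Ldhb, from the list of other glycolysis genes, read 9.88, 9.50 and 8.28 in WT and 9.60, 9.76 and 8.53 in Selp-/-, and was lower by array number (difference -1.28, SE 0.14, adjusted p = 0.00550). Pdk3, a further pyruvate dehydrogenase kinase, read 10.65, 10.69 and 10.65 in WT and 10.94, 10.72 and 10.71 in Selp-/-, with no separation by number (adjusted p = 0.794). Pdk2, another of these kinases from the list of other genes, read 10.54, 10.37 and 9.45 in WT and 10.39, 10.63 and 9.13 in Selp-/-, a difference of -1.19 (SE 0.14, adjusted p = 0.00762). Pdk1 and Pdk2 were thus lower in the arrays numbered 3, and Pdk3 showed no call.

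**Figure D2:**
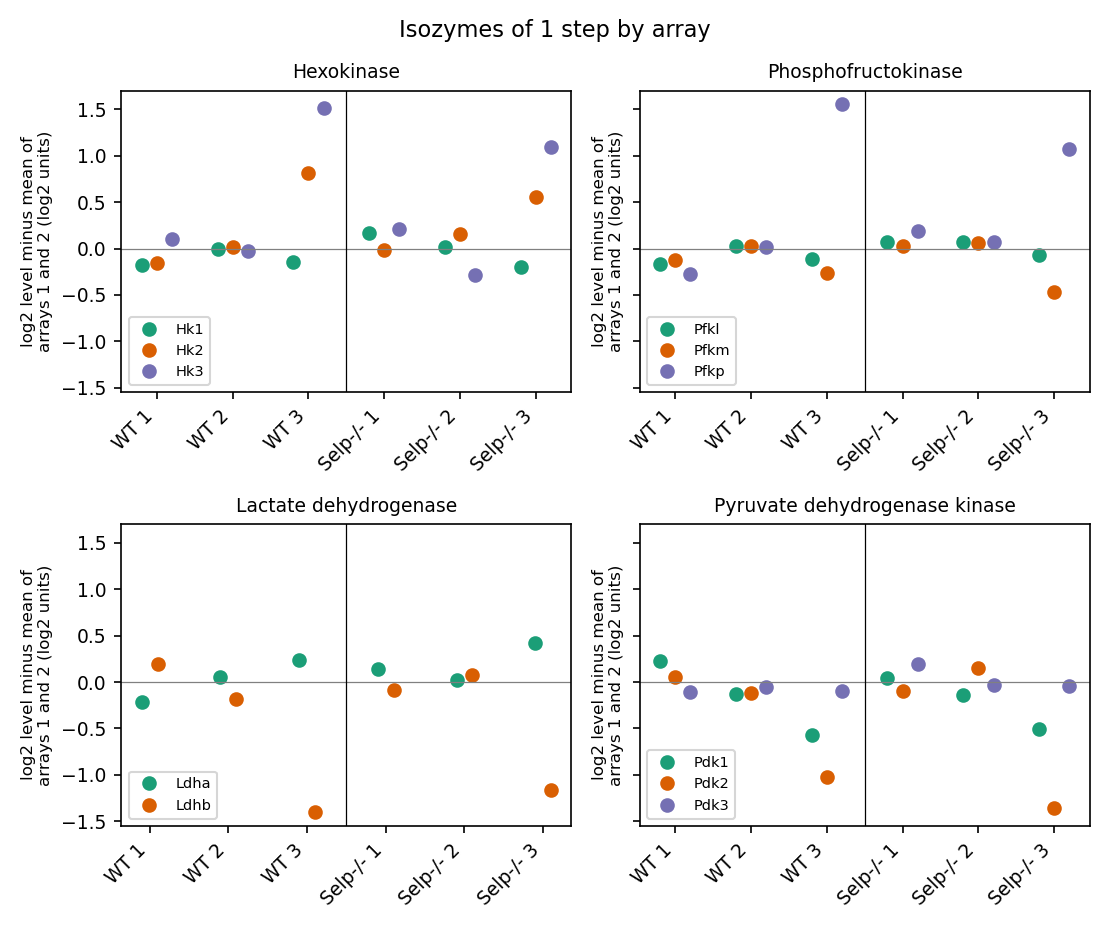
Log2 level of isozymes of 4 steps in each array, minus the gene's mean over the 4 arrays numbered 1 and 2 (log2 units); Hk1 is shown by its RefSeq probe set, and Hk3, Ldhb and Pdk2 come from the list of other glycolysis genes. In the arrays numbered 3, Hk2, Hk3 and Pfkp lie above 0 and Ldhb, Pdk1 and Pdk2 below it, while Hk1, Pfkl and Pdk3 stay near 0. Ldhb lay under the filter level in the arrays numbered 3.

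Of the 4 tested HIF subunits and hydroxylases, Hif1a changed by array number. Hif1a, the widely expressed alpha subunit, had levels of 10.64, 10.89 and 11.66 in WT and 10.70, 10.53 and 11.49 in Selp-/-. The arrays numbered 3 were highest in both genotypes, by 0.89 in WT and 0.87 in Selp-/-. The difference was 0.88 (SE 0.13), or 1.84-fold (adjusted p = 0.0152); it was lost without Selp-/- 3 (adjusted p = 0.0583) or WT 3 (0.0870). The protein, which oxygen controls, was not measured. Epas1, the alpha subunit HIF-2 alpha, read between 8.81 and 9.28 over the 6 arrays, close to the filter, with no separation (adjusted p = 0.380).

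Egln1, the main oxygen sensor among the prolyl hydroxylases, read 9.47, 9.49 and 9.48 in WT and 9.77, 9.49 and 9.74 in Selp-/- (difference by number 0.06, adjusted p = 0.688). Egln3, a hydroxylase that HIF itself induces, read 10.83, 10.84 and 11.06 in WT and 10.84, 10.76 and 11.19 in Selp-/-. Its arrays numbered 3 were the highest, and the difference of 0.31 (SE 0.11) did not pass (adjusted p = 0.209).

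Of the 9 tested hypoxia targets, Ndrg1 changed, and it was lower. Ndrg1, a stress gene induced by low oxygen in many cells, had levels of 11.66, 11.94 and 11.38 in WT and 11.51, 12.10 and 10.83 in Selp-/-. Both arrays numbered 3 were below the other 4, and Selp-/- 3 was the lowest; arrays 2 were the highest. The difference was -0.70 (SE 0.16; 0.616-fold; adjusted p = 0.0411), and it was lost without Selp-/- 2 (adjusted p = 0.111), Selp-/- 3 (0.101) or WT 2 (0.0567). Without Selp-/- 3 the difference was -0.42.

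Targets that code for secreted or membrane proteins and for collagen hydroxylases did not pass the test. Vegfa, the main angiogenic growth factor, read 9.41, 9.33 and 10.01 in WT and 9.59, 9.52 and 9.91 in Selp-/- (difference 0.50, adjusted p = 0.0619). P4ha1, a subunit of collagen prolyl hydroxylase, read 9.65, 9.86 and 10.45 in WT and 10.02, 9.66 and 10.44 in Selp-/- (difference 0.65, adjusted p = 0.0540). For both, the arrays numbered 3 were above the other 4. Ddit4, an inhibitor of mTOR signalling, read 9.45, 9.54 and 10.18 in WT and 9.61, 9.73 and 9.90 in Selp-/-, with the same order and a difference of 0.45 (adjusted p = 0.121).

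The mitophagy receptors Bnip3 and Bnip3l differed in direction without passing. Bnip3 read 10.16, 9.92 and 10.41 in WT and 9.95, 9.82 and 10.28 in Selp-/- (difference 0.39, adjusted p = 0.0824), and its dimmer probe set gave 0.21 (adjusted p = 0.313). Bnip3l, which also clears mitochondria from maturing red cells, read 13.01, 12.95 and 12.71 in WT and 12.79, 12.98 and 12.76 in Selp-/- (difference -0.20, adjusted p = 0.314). Car9, a carbonic anhydrase of hypoxic tumour cells, Ankrd37 and Mxi1, an antagonist of Myc, had adjusted p of 0.651, 0.713 and 0.697 by array number.

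The arrays numbered 3 were higher in both WT and Selp-/- for 20 of 28 members and lower in both for 7. The median over members was 0.25 in WT and 0.31 in Selp-/-. Across the 28 members the differences in the genotypes correlated with Pearson's r = 0.856, a description over genes that share arrays and are no independent replicates. Pfkp differed by 1.68 in WT and 0.95 in Selp-/-, and Ndrg1 by -0.42 and -0.98; a difference of this effect between genotypes could not be tested, since each number has 1 array per genotype.

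**Figure D3:**
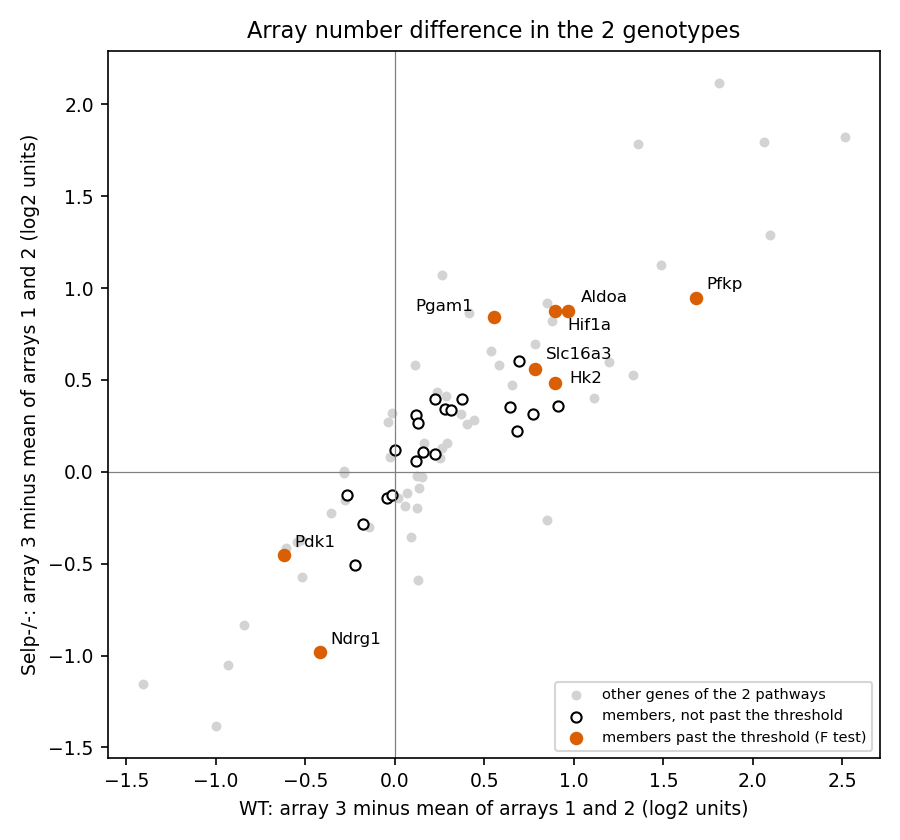
Each point is a tested gene, with array 3 minus the mean of arrays 1 and 2 in WT on the x axis and in Selp-/- on the y axis (log2 units); grey points are other genes of the glycolysis and hypoxia lists. The 6 called members that were higher lie in the upper right quadrant and Pdk1 and Ndrg1 in the lower left.

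The other genes of the same pathways, taken from lists of glycolysis and pyruvate genes and of hypoxia genes, moved in both directions. Of 21 tested other glycolysis genes, 8 changed by array number (38.1%), 5 higher and 3 lower, while 12.8% of all probe sets did. The share is not read against that background. Of the 21, 2 (Ldhb and Pgam2) lay under the filter level in the arrays numbered 3 and were tested through arrays 1 and 2. For 2 of the 8 called, Slc16a1 and Pklr, the arrays numbered 3 did not both lie on 1 side of the other 4. Hk3, the hexokinase of myeloid cells, read 10.10, 9.97 and 11.52 in WT and 10.21, 9.72 and 11.09 in Selp-/- (difference 1.30, SE 0.14, adjusted p = 0.00468). Both arrays numbered 3 were again above the rest. Mpc1, a subunit of the mitochondrial pyruvate carrier, was higher by 0.89 (adjusted p = 0.00728), and Slc16a1, the lactate transporter MCT1, by 0.64 (adjusted p = 0.0286), although Selp-/- 1, at 10.72, lay above WT 3, at 10.68. Pklr, the pyruvate kinase of liver and red cells, had a difference of -0.99 (adjusted p = 0.00260) that lay between arrays 1 and the rest: 10.76 and 11.21 in arrays 1, 9.43 and 9.12 in arrays 2, and 9.16 and 9.11 in the arrays numbered 3.

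Of 32 tested other hypoxia genes, 11 changed (34.4%), 9 higher and 2 lower. For 1 of the 11, Sap30, the arrays numbered 3 did not both lie on 1 side of the other 4. It read 9.74, 9.04 and 9.50 in WT and 9.58, 8.93 and 9.83 in Selp-/-, so that arrays 2 were the lowest. The share is not read against the background, since 4 of the 32 lay under the filter level in arrays 1 and 2 and were tested through the arrays numbered 3, Bhlhe40 and Nfil3 among them. Ero1a, the oxidase of the endoplasmic reticulum, was higher by 2.17 (SE 0.20, adjusted p = 0.00259). Plin2, which coats lipid droplets, was higher by 1.96 (SE 0.12, adjusted p = 0.000774), a difference, like that of Ero1a, larger than those of any of the 28 members. Bhlhe40, a transcriptional repressor, read 8.48 and 8.84 in WT arrays 1 and 2 and 8.59 and 8.56 in Selp-/- arrays 1 and 2, against 10.72 and 10.37 in the arrays numbered 3. Nfil3, a factor of lymphoid and myeloid lineages, read 8.75 and 8.43 in WT arrays 1 and 2, 8.95 and 8.997 in Selp-/- arrays 1 and 2, and 10.68 and 10.26 in the arrays numbered 3. Hmox1, heme oxygenase, was higher by 1.57 (adjusted p = 0.00351). Gbe1, the glycogen branching enzyme, was lower, with a difference of -0.84 (adjusted p = 0.00893).

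No member changed between genotypes. By limma, 0 of 28 members passed in Selp-/- against WT (0.0% of all tested probe sets did), and 0 of 28 with the array number as a block (also 0.0% of all). At an unadjusted p under 0.05 there were 0 members in either fit, against 0.706% of all tested probe sets without the block and 3.64% with it. The members' differences, Selp-/- minus WT, ran from -0.18 to 0.27 log2 units (n = 3 arrays per genotype), with SEs of 0.10 to 0.51, and the lowest adjusted p with the block was 0.983. The median over members was 0.02 and was 0.15, 0.04 and -0.04 within array numbers 1, 2 and 3. Without the arrays numbered 3 it was 0.0882, with 0 members past the threshold (0.0231% of all) and 0 at an unadjusted p under 0.05 (3.60% of all).

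The genotypes did not overlap for 1 member, Pdk3 (3.57%, against 4.21% of all tested probe sets, of which 2.24% were higher and 1.97% lower in Selp-/-). Selp-/- was higher in all 3 array numbers for 4 members (14.3%, against 12.6%) and lower in all for 1 (3.57%, against 11.2%). The member shares for non-overlap and for higher in every number were near the background.

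The 7 members with the smallest genotype p in either fit are given with their intervals from the fit with the array number as a block, which removes the difference between numbers. Pgam1, whose values stand above, differed by 0.27 (95% interval -0.04 to 0.57), and it was higher in Selp-/- by 0.41 and 0.46 in numbers 1 and 3 and lower, at -0.07, in number 2. Car9 read 8.89, 8.63 and 8.98 in WT and 8.93, 9.16 and 9.14 in Selp-/-, near the filter, a difference of 0.24 (-0.05 to 0.54) that came mostly from number 2. Egln1 differed by 0.18 (-0.06 to 0.43), with Selp-/- 1 and 3 high and Selp-/- 2 level with WT. Ldha differed by 0.17 (-0.06 to 0.40) and Pdk3 by 0.13 (-0.14 to 0.39). For these 5 genes the intervals held 0 and reached differences of 0.39 to 0.57.

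Hk1, by its brightest probe set, read 13.54, 13.48 and 13.33 in WT and 13.71, 13.62 and 13.38 in Selp-/-, a difference of 0.12 (-0.03 to 0.27) with Selp-/- higher within every number. Its RefSeq probe set gave 0.35, 0.02 and -0.06 in numbers 1, 2 and 3, a difference of 0.10 (-0.18 to 0.39), so Hk1 is among the 4 members higher in all numbers only by the brightest probe set. Bnip3, the 1 member lower in all numbers, differed by -0.21, -0.09 and -0.13, a difference of -0.14 (-0.38 to 0.09), but its dimmer probe set gave 0.01, -0.20 and -0.35. The genotypes still overlapped for both genes, because the numbers differed more than the genotypes. For Hif1a the difference was -0.16 (-0.44 to 0.13), and for Aldoa it was 0.00 (-0.20 to 0.19).

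**Figure D4:**
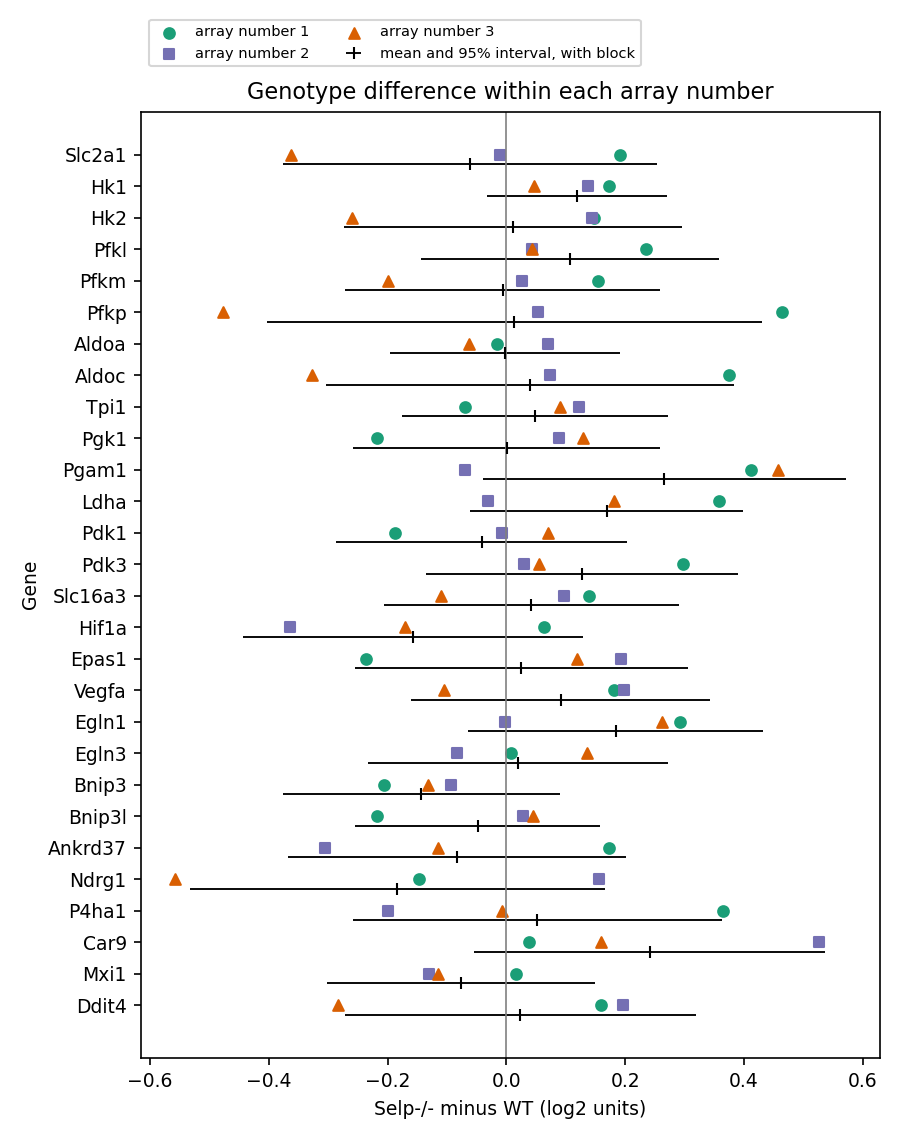
Selp-/- minus WT for each of the 28 tested members (log2 units), as a symbol for each array number and as the mean with its 95% interval from the fit with the array number as a block. All 28 intervals include 0; for Pfkp and Slc2a1 the symbol of number 3 lies left of 0 and that of number 1 right of it.

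The filter left out 2 measured members. P4ha2, a second collagen hydroxylase subunit, read 8.40, 8.40 and 8.65 in WT and 8.55, 8.66 and 8.78 in Selp-/-, and Adm, the vasodilator peptide adrenomedullin, 8.58, 8.82 and 8.85 in WT and 8.83, 8.58 and 8.70 in Selp-/-. Their means of 8.57 and 8.73 lay just under the filter level of 8.79, and the members just above it were Car9 at 8.95, Epas1 at 9.08 and Ankrd37 at 9.11.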

How the data were processed

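Total RNA of HSC was amplified and biotin-labelled for 6 arrays, per the labels' protocols; the probe set numbers are those of a whole-transcript Affymetrix mouse array. The authors deposited 1 linear intensity per probe set and array; MAS5 is named without a version, per the submitters' processing notes, and no source used here gives its scaling. Median intensities ran from 563 to 751, and the number of arrays limits the precision.

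In R 4.3.3 with limma 3.58.1, the deposited intensities were background-corrected (normexp, offset 50), log2-transformed and quantile normalized. Probe sets under the 40th percentile of the mean level were left out, and lmFit and eBayes with a trend were fitted over all 17289 others, with Benjamini-Hochberg adjustment. Genotype was fitted without and with the array number as a block. Same-numbered arrays deviated together (correlations of 0.43, 0.53 and 0.81 for numbers 1, 2 and 3), and the numbers were treated as pairs; WT 2 with Selp-/- 1 (0.51) and WT 1 with Selp-/- 2 (0.37) were about as high, so that arrays 1 and 2 are hardly told apart by it. Alternatives changed the background correction, normalization, filter, trend, probe set and arrays. The fits were also run on simulated data with known changes. For genotype these data held no array number effect, so they do not show what the genotype fit could find here.

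Names came from GEO's platform annotation, updated through RefSeq: 21780 probe sets had 1 symbol, 1605 several and 5430 none. Each gene is represented by its brightest tested probe set. Named genes were all members past a threshold, the 6 members of smallest genotype p in each fit, and a few of smallest p per further list. Members and lists were chosen with earlier results of these data known.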

Additional observations from a re-analysis of the deposited data

Results flagged for a closer look

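For the 6 genes given here, the array numbered 3 lay on opposite sides of arrays 1 and 2 in the genotypes. They come from the related glycolysis and hypoxia lists. Other tested genes of these lists also had opposite signs, such as Dlat (-0.04 in WT and 0.27 in Selp-/-) and Kdm4b (0.14 and -0.09). The difference between genotypes was not tested, and with 1 array per genotype and number it could not be. Each value is the log2 level in array 3 minus the mean of arrays 1 and 2. Except for Arnt, the 6 genes were chosen after their values were seen. Slc2a3, the glucose transporter GLUT3, gave 0.85 in WT and -0.26 in Selp-/-, since WT 3 read 11.37 and Selp-/- 3 read 10.35. Pgam2, the muscle phosphoglycerate mutase, gave 0.13 in WT and -0.59 in Selp-/-. Pdha1, a subunit of pyruvate dehydrogenase, gave -0.28 in WT and 0.0027 in Selp-/-. Arnt, the HIF beta subunit, gave 0.13 in WT and -0.20 in Selp-/-. Egln2, a prolyl hydroxylase, gave 0.057 in WT and -0.19 in Selp-/-. Ccng2, an atypical cyclin, gave 0.0918 in WT and -0.36 in Selp-/-. Of the 28 tested members only Egln1 had opposite signs, with -0.0007 in WT and 0.12 in Selp-/-.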

How the results depend on the processing

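No alternative called a member between genotypes; the replicate block left the count of genotype calls over all probe sets at 0 and the members' median difference at 0.02, while arrays 1 and 2 alone gave 4 calls, none a member. On the log2(value + 16) scale with no normalization, where the median of all probe sets shifted by 0.20 by array number and 0.11 by genotype, the members' medians were 0.52 and 0.13, and 18 members and 5901 probe sets were called by array number, 82.7% of the latter higher against 47.6% in the main setting. Without the filter 4 members were called and the members' median was 0.26. Arrays 1 and 2 alone, added after seeing the data, gave 87 number calls and 0 members. On the unnormalized scale Pdk1 was called at -0.27. Ndrg1 missed the threshold there (-0.40) and with median centring (-0.65), and Hk2, Pgam1, Pdk1 and Ndrg1 without the filter (adjusted p = 0.0569, 0.0509, 0.0613 and 0.0647). Leaving out each array gave 1036 to 2153 number calls, 3 to 9 members among them, of the 8 called members 3 (without WT 2 or WT 3) to 7 (without Selp-/- 1), a members' median by number of 0.25 to 0.32 and by genotype of -0.0653 to 0.141, and 0 genotype calls. The genotype difference of Pgam1 ran from -0.0137 to 0.549, reversed without Selp-/- 3; that of Ldha ran from 0.04 to 0.28, Bnip3 from -0.27 to -0.02, Hk1 from 0.05 to 0.22, Pdk3 from 0.05 to 0.17, none past the threshold. The cause of these changes was not tested, except that each array left out leaves 1 residual degree of freedom in the number fit and dropping the filter tests more probe sets. Both Hk1 probe sets gave a members' median by number of 0.31.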

Other observations

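Among the other glycolysis genes, pyruvate kinase Pkm had 2 tested probe sets that differed in size: the brightest was higher by array number by 0.90 (SE 0.17, limma adjusted p = 0.0311) and the other by 0.53 (SE 0.11, adjusted p = 0.0354). The genotype values of Plin2 and all of Pkm were chosen after they were seen. The genotype differences with the smallest p among the other glycolysis genes in the fit without the block, of Fbp2, a fructose bisphosphatase, and Dlat, a subunit of pyruvate dehydrogenase, were 0.17 (SE 0.10) and 0.22 (SE 0.16). With the array number as a block the smallest p was that of Pkm, at 0.40 (SE 0.16, 95% interval 0.02 to 0.78, limma adjusted p = 0.983), with differences of 0.37, 0.83 and 0.0024 in numbers 1, 2 and 3. None of the 21 passed in either fit. Among the other hypoxia genes, Arnt differed by 0.17 (SE 0.13) and Gys1, the muscle glycogen synthase, by 0.19 (SE 0.24) without the block. With the block the smallest p was that of Plin2, at 0.30 (SE 0.12, 95% interval 0.02 to 0.57, limma adjusted p = 0.983), higher in Selp-/- in all 3 numbers. None of the 32 passed in either fit. Gys1 was higher by array number, by 0.58 (SE 0.10, adjusted p = 0.0268).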
